A study of Arabidopsis thaliana with 18 samples.

Results

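Ribosome biogenesis factors are the proteins that process ribosomal RNA precursors and assemble ribosomal subunits, and they are not part of the finished ribosome. The 37 genes described here were picked out by a list of locus identifiers as nucleolar and pre-rRNA processing factors of Arabidopsis thaliana. All 37 were found among the 33602 gene models of the deposited tables, and all 37 were among the 20619 genes that passed the filter on low counts.

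In the nucleolus, RNA polymerase I transcribes a long precursor that small nucleolar ribonucleoprotein particles (snoRNPs) modify and that nucleases, helicases and scaffold proteins cut and fold into the precursors of the 40S and 60S subunits. Those precursors are exported from the nucleus and finished in the cytoplasm. The target of rapamycin (TOR) kinase complex, of which LST8 is a subunit, promotes growth and ribosome synthesis in well-fed cells. In yeast, the kinase YAK1 acts against growth.

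RNA was sequenced from whole untreated plants of the Col0 accession at Boyes stage 1.02, grown in vitro on 0.3 % sucrose at 20 °C with 16 h of light, in 18 libraries, 3 for each of 6 genotypes. These were the double mutant yak1lst8-1, the single mutants lst8-1 and yak1, the lines maktor1g1maktor5g and maktor1g1, and wild-type Col0 plants, and every mutant was in the Col0 background. The design text calls the mutants gene knockouts and counts 2 biological replicates, so the 3 libraries of a genotype may not be 3 separate plant pools, and the p-values then measure only the spread between libraries. The labels give neither the nature of the alleles nor the genes behind the maktor names, and the number of lines or plants behind a library is not given in the sources used here.

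Libraries held 10801464 to 17548790 counts, and a count of 0 in the shallowest allows up to 0.278 CPM (counts per 1e6 counts), for counting error alone. CPM values below are scaled by TMM, the trimmed mean of M values that evens out library composition. The LST8-1 transcript was at 1.53 ± 0.554 CPM in yak1lst8-1 and 2.31 ± 0.159 CPM in lst8-1, against 50.7 ± 3.55 CPM in Col0 (SD, n = 3 each). The YAK1 transcript was higher in the libraries labelled yak1lst8-1 (336.9 ± 72.0 CPM) and yak1 (321.6 ± 75.6 CPM) than in Col0 (122.4 ± 20.3 CPM; SD, n = 3 each). Counts per gene do not show whether the YAK1 transcript is intact, so yak1 and yak1lst8-1 below are the names on the libraries. The TOR transcript averaged 73.3 to 109.3 CPM over the 6 genotypes. Within each genotype, the library numbered 1 had the highest summed level of the 37 genes, in 6 of 6 genotypes, and the library numbered 3 the lowest in 5 of 6. What the number stands for is not given in the sources used here.

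The 37 genes differed widely in abundance. Per kilobase of gene model, NUC1 was highest with 199.9 CPM per kb averaged over the libraries, followed by FIB1 with 104.8, PRH75 with 82.5, NOP56 with 57.3 and NMD3 with 51.5 CPM per kb. NUC2 was lowest with 1.48 CPM per kb, and AT3G12860, a NOP56-like gene, was next to lowest with 3.02 CPM per kb.

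Summed over the 37 genes, the level was 1915.6, 1689.7 and 1544.6 CPM in the libraries numbered 1, 2 and 3 of yak1lst8-1, 2918.2, 2734.2 and 2236.8 CPM in lst8-1, and 1950.0, 1771.8 and 1534.6 CPM in yak1. It was 2181.6, 1830.0 and 1838.3 CPM in maktor1g1maktor5g, 2192.7, 1915.5 and 1889.9 CPM in maktor1g1, and 2160.0, 1990.0 and 1912.6 CPM in Col0. Every lst8-1 library lay above every other library, and the libraries of yak1lst8-1 and yak1 overlapped each other and, at their upper end, those of the maktor lines and Col0. Of the 37 genes, 35 had their highest mean in lst8-1. The exceptions were SWA3, highest in maktor1g1maktor5g, and NUC2, highest in maktor1g1. The lowest mean was in yak1lst8-1 for 21 genes, in yak1 for 13, in maktor1g1maktor5g for 2 and in Col0 for 1. These counts cover the 37 genes alone, and the shares of all tested genes with such an order are not given here. In these whole-plant samples, fewer cells that express a gene and less RNA of it per cell cannot be told apart.

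**Figure D1:**
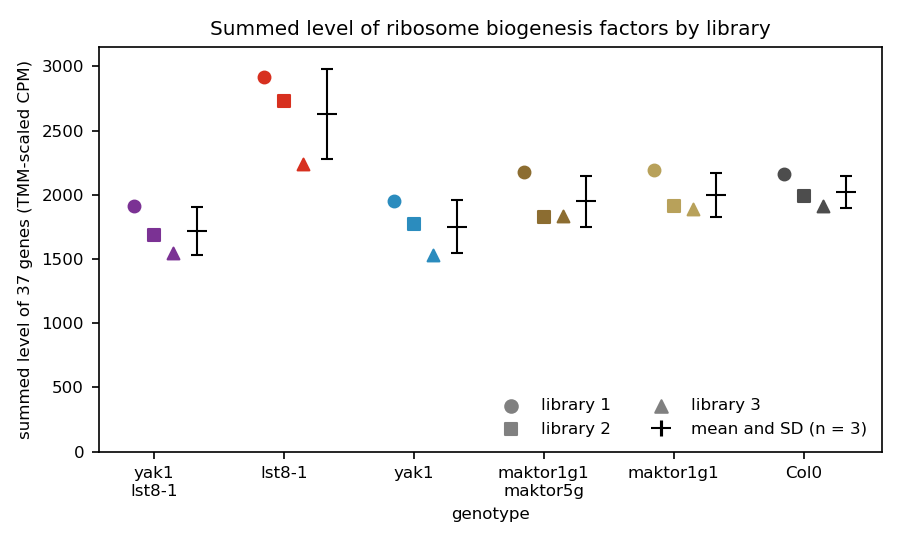
Summed level of the 37 ribosome biogenesis factors, in TMM-scaled CPM (vertical axis), in each library of the 6 genotypes (horizontal axis). Symbols mark the library number, and the bar beside them the mean and SD of 3 libraries. The lst8-1 libraries lie between 2236.8 and 2918.2 CPM, above all other libraries.

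The lst8-1 plants were set against Col0 to see how the 37 genes stand where the LST8-1 transcript is low. Transcripts of 16 of the 37 genes rose in lst8-1 and none fell by edgeR's quasi-likelihood test at an adjusted p below 0.05, where 14.1 % of all tested genes were called higher and 13.4 % lower. All 37 log2 fold changes were above 0, from 0.08 to 0.71, with a median of 0.34 against 0 over all tested genes. The lst8-1 libraries lay above all Col0 libraries for 15 of the 37 genes and below them for 0, against 20.1 % and 19.9 % of all tested genes. The count changed with single libraries: it was 6 without lst8-1 replicate 1, 8 without lst8-1 replicate 2, 9 without Col0 replicate 2 or 3 and 25 without lst8-1 replicate 3. Over all tested genes, these fits called 4489, 4134, 4818, 4930 and 5000 in either direction, in the order named. The median stayed between 0.26 and 0.42 over these omissions. With a replicate block, a term for the library number, 28 genes were called higher. That fit called 7432 of all tested genes in either direction, against 5673 without the block.

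In yak1lst8-1, transcripts of 31 of the 37 genes fell relative to lst8-1 and none rose by edgeR, where 16.6 % of all tested genes were called lower and 16.4 % higher. All 37 log2 fold changes were below 0, from −1.22 to −0.06, and the median was −0.54 against −0.02 over all tested genes. The yak1lst8-1 libraries lay below all lst8-1 libraries for 30 of the 37 genes and above them for 0, against 23.7 % and 22.4 % of all tested genes. The 6 genes not called were APUM23 (−0.36 ± 0.14, SE), BRX1-1 (−0.30 ± 0.13), NUC2 (−0.22 ± 0.23), XRN2 (−0.20 ± 0.11), SWA3 (−0.17 ± 0.11) and REIL1 (−0.06 ± 0.06). Both comparisons use the same lst8-1 libraries and are therefore not independent. Leaving out each library in turn gave 22 to 32 genes called lower. The calls over all tested genes in those fits are not given here.

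The direct comparison of yak1lst8-1 with yak1 called none of the 37 genes in either direction by edgeR. Of all tested genes, 1.88 % were called higher and 1.11 % lower. Its fold changes do not compare lst8-1 or Col0 levels, but its p-values and intervals use the spread over all 18 libraries. No gene of the 37 had an unadjusted p below 0.05, against 3156 of the 20619 tested genes, and DESeq2 also called 0 of the 37. The log2 fold changes ran from −0.35 to 0.20 with a median of −0.03. The libraries overlapped for all 37 genes, while 11.1 % of all tested genes had every yak1lst8-1 library higher and 9.15 % every one lower. The 95 % intervals, given for 34 genes, reached from −0.89 to 0.59, and the other 3 genes had estimates of 0.00 to 0.01 with no interval because the test statistic was near 0. These intervals do not show that the genotypes have the same levels.

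In libraries labelled yak1, NOB1 (AT5G41190), the endonuclease that forms the 3' end of 18S rRNA, fell by 0.36 ± 0.10 relative to Col0 (SE, adjusted p = 0.0251, edgeR), and it was the 1 gene of the 37 called, where 6.11 % of all tested genes were called lower and 5.75 % higher. The log2 fold change was below 0 for 35 of the 37 genes, with a median of −0.20 against −0.01 over all tested genes. All yak1 libraries lay below those of Col0 for 9 genes and above them for 0, against 13.4 % and 12.7 % of all tested genes. The call of NOB1 was lost when only yak1 and Col0 libraries were fitted, and without yak1 replicate 2 or 3 or Col0 replicate 1 or 2, which each left 0 genes called, while 4 genes were called without yak1 replicate 1 and 2 without Col0 replicate 3. The full fit called 2446 of all tested genes in either direction. That number was 929 with only yak1 and Col0 libraries and 1665 to 2262 with 1 library left out. With only the libraries numbered 2 and 3, a choice made after seeing the data, 6 genes were called lower. That fit called 2179 of all tested genes in either direction. With a replicate block, 14 genes were called lower, where 4111 of all tested genes were called in either direction.

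Against Col0, 6 of the 37 genes fell in yak1lst8-1 by edgeR and none rose, where 8.65 % of all tested genes were called lower and 10.3 % higher. These were TOZ (−0.52 ± 0.15, SE), AT5G27120 (−0.51 ± 0.17), ENP1 (−0.39 ± 0.12), REIL2 (−0.35 ± 0.12), PRH75 (−0.34 ± 0.10) and NOB1 (−0.32 ± 0.10), with adjusted p of 0.0205 to 0.0493 by edgeR. The median over the 37 genes was −0.24 against −0.01 over all tested genes. All yak1lst8-1 libraries lay below those of Col0 for 15 genes and above them for 0, against 16.9 % and 17.7 % of all tested genes. The count was 0 without yak1lst8-1 replicate 2, yak1lst8-1 replicate 3 or Col0 replicate 1, 2 without Col0 replicate 2 and 10 without yak1lst8-1 replicate 1. Over all tested genes, these fits called 2853, 2907, 3188, 3226 and 3226 in either direction, in the order named, against 3903 in the full fit. With a replicate block, 17 of the 37 genes were called lower, where 5771 of all tested genes were called in either direction.

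Whether the yak1 genotype goes with a larger difference where LST8-1 is low was tested by the interaction, the difference between yak1lst8-1 and lst8-1 minus that between yak1 and Col0. It was below 0 for all 37 genes, with a median of −0.32 against 0 over all tested genes. An unadjusted p below 0.05 was found for 13 of the 37, and for 3602 of the 20619 tested genes. edgeR called 3 genes, all lower, where 1.35 % of all tested genes were called lower and 2.11 % higher. These were NMD3 (−0.39 ± 0.09, SE, adjusted p = 0.0183, edgeR), PRH75 (−0.61 ± 0.15, adjusted p = 0.0275) and SWA1 (−0.87 ± 0.23, adjusted p = 0.0473). The count was 0 when only the 4 genotypes of the term were fitted, 1 with library totals in place of TMM and 5 by DESeq2. These fits called 338, 693 and 957 of all tested genes in either direction, against 714 in the full fit. The count was 0 without lst8-1 replicate 1 or yak1lst8-1 replicate 2, and 1 without lst8-1 replicate 2, yak1 replicate 1 or 2, yak1lst8-1 replicate 3 or Col0 replicate 2. In these omissions 347 to 468 of all tested genes were called. The count was 5 without yak1 replicate 3 or yak1lst8-1 replicate 1 and 6 without lst8-1 replicate 3, where 739 to 839 of all tested genes were called. With a replicate block, 16 of the 37 genes were called, where 1889 of all tested genes were called in either direction.

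**Figure D2:**
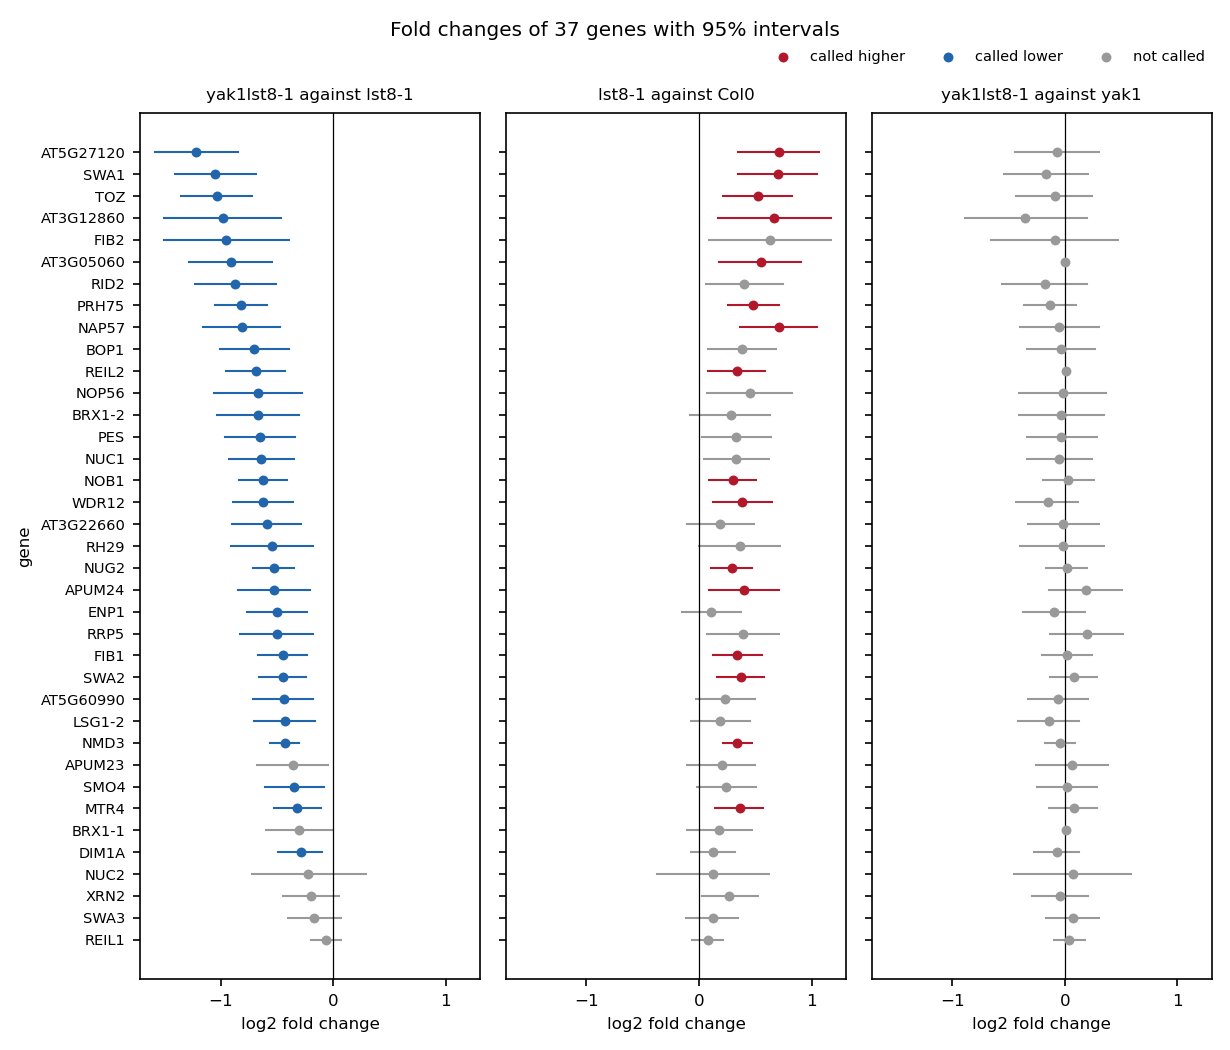
Log2 fold changes of the 37 genes (points) with 95 % intervals (lines) in 3 comparisons, with genes ordered by the difference between yak1lst8-1 and lst8-1. Colour marks genes called higher or lower at an adjusted p below 0.05 by edgeR, and 3 points in the right panel have no interval. Values run from −1.22 to −0.06 in the left panel, from 0.08 to 0.71 in the middle and from −0.35 to 0.20 in the right.

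Neither maktor line differed from Col0 in any of the 37 genes by edgeR. In maktor1g1maktor5g, 0 genes were called, 1 had an unadjusted p below 0.05 and the median log2 fold change was −0.03, where 0.0339 % of all tested genes were called in each direction. In maktor1g1, 0 genes were called, 0 had an unadjusted p below 0.05 and the median was 0.02, again against 0.0339 % in each direction. Between maktor1g1maktor5g and maktor1g1, 0 genes were called and 0 had an unadjusted p below 0.05, where 0.00485 % of all tested genes were called in each direction. Of the 20619 tested genes, 2353, 1759 and 360 had an unadjusted p below 0.05 in these 3 comparisons, in the order named. Without overlap, 0 genes were higher and 1 lower in maktor1g1maktor5g than in Col0, against 7.28 % and 6.97 % of all tested genes. In maktor1g1, 2 were higher and 2 lower than in Col0, against 7.13 % and 6.27 %, and the maktor lines overlapped each other in all 37, against 3.94 % of all tested genes higher and 3.38 % lower without overlap. DESeq2 called 0 of the 37 in each of these comparisons. The 95 % intervals against Col0 reached from −0.85 to 0.56 in maktor1g1maktor5g and from −0.78 to 0.73 in maktor1g1, so differences of this size are not excluded for single genes.

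**Figure D3:**
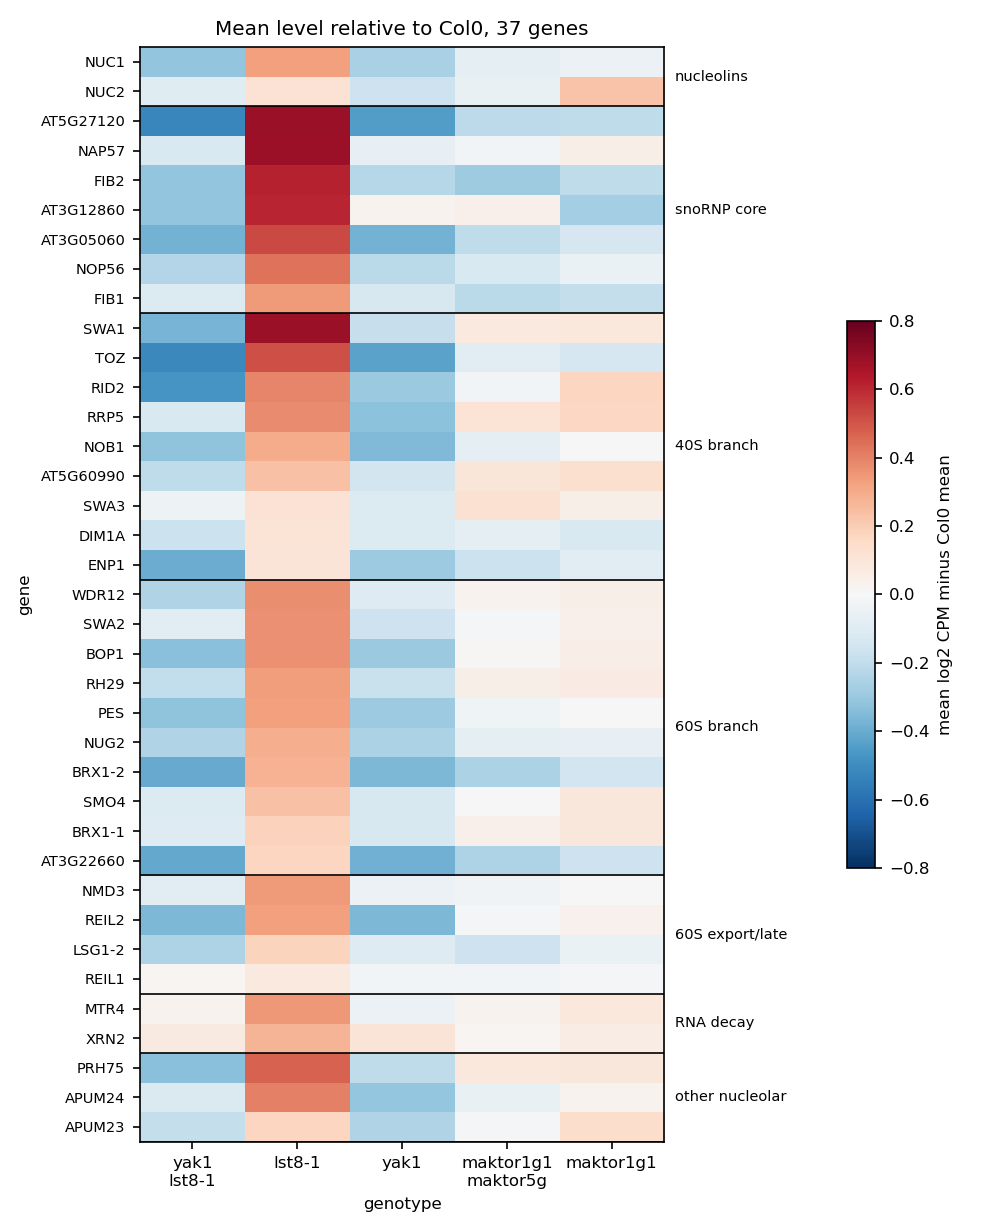
Mean log2 CPM of each gene in 5 genotypes minus its mean in Col0 (colour, log2 scale), for the 37 genes grouped by role and ordered within a role by the lst8-1 value. The lst8-1 column is above 0 for all genes, and the columns yak1lst8-1 and yak1 are mostly below 0.

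Since most of the 37 genes moved together, the 250 bases upstream of each annotated start were searched on both strands for the core of the telo-box, AAACCCT, and for site II elements, TGGGCC and TGGGCT, which are known from promoters of plant ribosomal protein genes. Coordinates and sequences are from RefSeq's TAIR10.1 assembly, since the deposited tables hold none. A site II element was found in 23 of the 37 windows (62.2 %), against 19.2 % of the windows of all 27443 protein-coding genes searched. TGGGCC was in 56.8 % against 13.7 %, TGGGCT in 24.3 % against 12.3 %, and the telo-box core in 21.6 % against 7.33 %. Both kinds of element were in 18.9 % of the 37 windows, against 2.08 % of all windows. All 37 genes passed the filter on low counts, but the 27443 genes were not limited to the 20619 tested. The shares are therefore not matched for expression. Of the 23 genes with a site II element, 22 were called lower in yak1lst8-1 than in lst8-1, with a median log2 fold change of −0.65, and of the 14 without one, 9 were, with a median of −0.40. In lst8-1 against Col0 the medians were 0.36 with 11 called genes and 0.24 with 5 called genes. Of all tested genes, 16.6 % were called lower in the first comparison and 14.1 % higher in the second. These shares are not split by site II element, so a link between element and call was not tested. Genes without any of the 3 elements were called too. PRH75, NMD3, MTR4 and APUM24 were called in both comparisons and hold none of them. BRX1-1, with 2 copies of TGGGCC, was called in neither. The windows of MTR4 and APUM24 overlap no other annotated gene. Other windows, such as those of PRH75, NMD3, BRX1-1, NOP56 and SWA1, do overlap one or more. Elements in such windows, as in BRX1-1, may belong to another gene. The letters describe these windows alone and show no binding.

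The windows of NUG2 (chr1:19737155-19737404, plus strand), TOZ (chr5:5509362-5509611, minus strand), FIB1 (chr5:21293897-21294146, plus strand), REIL2 (chr2:10402935-10403184, minus strand) and REIL1 (chr4:15248059-15248308, minus strand) overlap no other annotated gene and are shown 5' to 3' on the gene's strand, with the elements in capitals in either orientation. NUG2 has the most elements of these 5 windows, TOZ and FIB1 fell in yak1lst8-1 relative to lst8-1 by 1.03 and 0.45 on the log2 scale, and REIL2 and REIL1 are paralogs of which only REIL2 was called there by edgeR.
NUG2: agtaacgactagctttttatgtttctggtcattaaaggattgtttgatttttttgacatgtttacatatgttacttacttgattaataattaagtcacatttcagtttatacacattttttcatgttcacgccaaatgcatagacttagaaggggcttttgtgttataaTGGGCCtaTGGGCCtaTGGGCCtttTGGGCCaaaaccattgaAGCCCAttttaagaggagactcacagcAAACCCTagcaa
TOZ: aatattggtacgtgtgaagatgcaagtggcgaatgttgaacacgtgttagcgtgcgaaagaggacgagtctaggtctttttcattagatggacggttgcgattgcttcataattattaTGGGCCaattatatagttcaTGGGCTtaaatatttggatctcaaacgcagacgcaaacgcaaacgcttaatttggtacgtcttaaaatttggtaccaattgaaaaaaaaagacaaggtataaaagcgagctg
FIB1: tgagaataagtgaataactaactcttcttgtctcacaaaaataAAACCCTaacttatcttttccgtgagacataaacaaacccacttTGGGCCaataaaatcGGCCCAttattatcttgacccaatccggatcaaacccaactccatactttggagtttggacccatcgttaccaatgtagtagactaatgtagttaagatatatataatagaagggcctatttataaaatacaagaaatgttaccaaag
REIL2: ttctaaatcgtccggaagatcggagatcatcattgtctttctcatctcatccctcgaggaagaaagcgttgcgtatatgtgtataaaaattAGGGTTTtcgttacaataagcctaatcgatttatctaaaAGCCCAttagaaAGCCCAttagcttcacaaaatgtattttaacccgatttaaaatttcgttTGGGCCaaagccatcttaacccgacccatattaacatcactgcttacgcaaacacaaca
REIL1: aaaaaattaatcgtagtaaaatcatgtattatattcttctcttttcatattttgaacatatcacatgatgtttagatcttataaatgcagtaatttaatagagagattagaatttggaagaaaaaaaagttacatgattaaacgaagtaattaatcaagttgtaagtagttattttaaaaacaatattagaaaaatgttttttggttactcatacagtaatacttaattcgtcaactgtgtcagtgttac
NUG2 holds 4 copies of TGGGCC, 1 of TGGGCT and 1 telo-box core, REIL2 holds 1, 2 and 1 of these, and FIB1 holds 2, 0 and 1. TOZ holds 1 TGGGCC and 1 TGGGCT, and REIL1 holds none of the 3.

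Among the 7 snoRNP core proteins, 5 rose in lst8-1 relative to Col0 and all 7 fell in yak1lst8-1 relative to lst8-1, with medians of 0.63 and −0.91. Of all tested genes, 14.1 % were called higher in the first comparison and 16.6 % lower in the second, with medians of 0 and −0.02. The snoRNPs carry out the methylation and pseudouridylation of rRNA. AT5G27120, which encodes a protein of the NOP56/NOP58 type, was at 47.2, 36.8 and 36.1 CPM in yak1lst8-1, 106.9, 99 and 74.2 CPM in lst8-1, 47.4, 43.9 and 35.1 CPM in yak1, 42.5 to 61.9 CPM over the 6 maktor libraries and 62.7, 55.2 and 53.7 CPM in Col0. All lst8-1 values were above those of every other genotype, and all yak1lst8-1 values were below those of Col0. The gene fell by 1.22 ± 0.17 in yak1lst8-1 relative to lst8-1 (SE, adjusted p = 5.54e-05, edgeR), the lowest log2 fold change of the 37 genes, and it rose by 0.71 ± 0.16 in lst8-1 relative to Col0 (adjusted p = 0.00430).

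Its paralog AT3G05060 was at 50.1, 40.5 and 37.5 CPM in yak1lst8-1, 93.6, 84.3 and 63.7 CPM in lst8-1, 47.7, 45.3 and 35.3 CPM in yak1 and 60.9, 51.1 and 53.7 CPM in Col0. It fell by 0.91 ± 0.17 in yak1lst8-1 relative to lst8-1 and rose by 0.55 ± 0.17 in lst8-1 relative to Col0 (SE, adjusted p = 0.000709 and 0.0229, edgeR). The log2 ratio of AT5G27120 to AT3G05060 per kilobase was 0.03 ± 0.04 in yak1lst8-1, 0.33 ± 0.02 in lst8-1 and 0.17 ± 0.06 in Col0 (SD, n = 3 each). The lst8-1 ratios overlapped neither those of yak1lst8-1 nor those of Col0, with p = 0.1 each, the smallest that a two-sided exact permutation test of 3 against 3 can give, and 0.25 after adjustment over the 10 ratio comparisons made.

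The fibrillarins FIB1 and FIB2 are methyltransferases of box C/D snoRNPs. FIB1 (AT5G52470) was at 131.3, 123.1 and 112.1 CPM in yak1lst8-1, 178.5, 173.2 and 149.3 CPM in lst8-1, 126.1, 120.3 and 114.6 CPM in yak1, 106.5 to 130.7 CPM over the maktor libraries and 149.4, 124.8 and 121.5 CPM in Col0. FIB2 (AT4G25630) was at 38.3, 28.7 and 26.8 CPM in yak1lst8-1, 72.4, 65.6 and 43.2 CPM in lst8-1, 42.2, 33.6 and 24.8 CPM in yak1, 27.9 to 44.9 CPM over the maktor libraries and 49.3, 33.2 and 34.8 CPM in Col0. Libraries of lst8-1 and yak1lst8-1 did not overlap in either gene, while those of lst8-1 and Col0 overlapped in both. In yak1lst8-1 relative to lst8-1, FIB1 fell by 0.45 ± 0.10 and FIB2 by 0.95 ± 0.25 (SE, adjusted p = 0.00241 and 0.0107, edgeR). FIB1 rose by 0.34 ± 0.10 in lst8-1 relative to Col0 (adjusted p = 0.0173, edgeR), and FIB2, with 0.63 ± 0.25, was not called (adjusted p = 0.0751). The ratio of FIB2 to FIB1 was not shown to differ between lst8-1 and Col0 or between yak1lst8-1 and lst8-1 (exact permutation p = 0.2 each). Reads that fit both paralogs equally well had been removed, so the counts of such pairs cover only the sequence in which the copies differ.

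NAP57 (AT3G57150), the dyskerin-type pseudouridine synthase of box H/ACA particles, averaged 61.2 ± 11.1 CPM in yak1lst8-1, 107.7 ± 21.9 CPM in lst8-1 and 66.1 ± 3.65 CPM in Col0 plants (SD, n = 3 each). It rose by 0.71 ± 0.16 in lst8-1 relative to Col0 (SE, adjusted p = 0.00337, edgeR). NOP56 (AT1G56110), a core protein of box C/D particles, averaged 87.9 ± 17.2 CPM in yak1lst8-1, 139.8 ± 26.0 CPM in lst8-1, and 102.4 ± 11.5 CPM in Col0 plants. AT3G12860 averaged 3.70 ± 0.530 CPM, 7.33 ± 2.18 CPM and 4.65 ± 0.776 CPM for the same genotypes in that order. NAP57, NOP56 and AT3G12860 fell by 0.81 ± 0.16, 0.67 ± 0.18 and 0.98 ± 0.24 in yak1lst8-1 relative to lst8-1 by edgeR.

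Nucleolins bind pre-rRNA and the chromatin of rRNA genes. NUC1 (AT1G48920), the more abundant form, was at 373.4, 326.1 and 280.5 CPM in yak1lst8-1, 559.9, 535.6 and 435.3 CPM in lst8-1, 385.4, 341.6 and 289.1 CPM in yak1, 357.4 to 441.1 CPM over the maktor libraries and 454.7, 402 and 358.6 CPM in Col0. NUC2 (AT3G18610) was at 3.15, 2.5 and 2.93 CPM in yak1lst8-1, 3.13, 3.86 and 3.04 CPM in lst8-1, 3.1, 3.16 and 2.01 CPM in yak1, 2.33 to 4.56 CPM over the maktor libraries and 3.4, 3.54 and 2.36 CPM in Col0. The NUC1 libraries of yak1lst8-1 lay below those of lst8-1 without overlap, whereas NUC2 overlapped between all genotypes compared here. NUC1 fell by 0.64 ± 0.13 in yak1lst8-1 relative to lst8-1 (SE, adjusted p = 0.00135, edgeR), and its 0.33 ± 0.13 in lst8-1 relative to Col0 was not called (adjusted p = 0.0696). NUC2 was not called in either, with 95 % intervals of −0.72 to 0.29 and −0.37 to 0.62. The log2 ratio of NUC2 to NUC1 per kilobase was −6.93 ± 0.23 in yak1lst8-1 and −7.35 ± 0.20 in lst8-1 without overlap (SD, n = 3 each; exact permutation p = 0.1, 0.25 after adjustment over 10).

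Factors of the 40S branch include the small subunit processome, which binds the nascent precursor. Of these 9 genes, 3 rose in lst8-1 relative to Col0 (SWA1, TOZ and NOB1) and 8 fell in yak1lst8-1 relative to lst8-1, all but the helicase SWA3, with medians of 0.30 and −0.50. The shares of all tested genes called were 14.1 % higher in the first comparison and 16.6 % lower in the second. TOZ (AT5G16750), a WD40 protein of the processome, was at 18.9, 16.7 and 14.1 CPM in yak1lst8-1, 37.8, 34.9 and 28.9 CPM in lst8-1, 21.4, 16.9 and 14.8 CPM in yak1, 19.4 to 26.2 CPM over the maktor libraries and 26.6, 21 and 23.4 CPM in Col0. SWA1 (AT2G47990), a processome protein of the UTP15 type needed for the divisions of the female gametophyte, was at 14, 12.3 and 8.92 CPM in yak1lst8-1, 24.4, 27.8 and 20.9 CPM in lst8-1, 14.4, 14.3 and 11.1 CPM in yak1, 14.1 to 19.1 CPM over the maktor libraries and 16.8, 14.7 and 13.5 CPM in Col0. Both genes were higher in every lst8-1 library than in any other library. TOZ fell by 1.03 ± 0.15 and SWA1 by 1.05 ± 0.16 in yak1lst8-1 relative to lst8-1 (SE, adjusted p = 4.61e-05 and 0.000118, edgeR). In lst8-1 relative to Col0, TOZ rose by 0.52 ± 0.14 and SWA1 by 0.70 ± 0.16 (adjusted p = 0.0109 and 0.00322, edgeR). SWA1 shares 112 and 556 bases with 2 genes on the other strand, and the sources used here do not say if reads were assigned by strand.

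NOB1 averaged 27.9 ± 0.422 CPM in yak1lst8-1, 43.0 ± 4.25 CPM in lst8-1, 27.3 ± 1.59 CPM in yak1 and 35.0 ± 3.86 CPM in Col0 (SD, n = 3 each), and it fell by 0.62 ± 0.10 in yak1lst8-1 relative to lst8-1 (SE, adjusted p = 0.000132, edgeR). In lst8-1 relative to Col0 it rose by 0.30 ± 0.10 (adjusted p = 0.0287, edgeR), and these libraries overlapped. The 18S rRNA methyltransferases RID2 and DIM1A fell by 0.87 ± 0.17 and 0.29 ± 0.09 in yak1lst8-1 relative to lst8-1 (SE, adjusted p = 0.000629 and 0.0188, edgeR). RRP5, an RNA-binding processing factor, ENP1, the bystin homologue, and AT5G60990, a DEAD-box helicase, fell by 0.50 ± 0.15, 0.50 ± 0.12 and 0.44 ± 0.12 in the same comparison. None of these 5 was called in lst8-1 relative to Col0, with log2 fold changes of 0.40 ± 0.16, 0.12 ± 0.09, 0.39 ± 0.15, 0.11 ± 0.12 and 0.23 ± 0.12 in the order named.

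Of the 10 assembly factors of the 60S branch, 3 rose in lst8-1 relative to Col0 (SWA2, NUG2 and WDR12) and 9 fell in yak1lst8-1 relative to lst8-1, with medians of 0.31 and −0.57. The shares of all tested genes called were 14.1 % higher in the first comparison and 16.6 % lower in the second. NUG2 (AT1G52980), a nucleolar GTPase, was at 58.6, 55.1 and 50.8 CPM in yak1lst8-1, 84.6, 82.2 and 70.7 CPM in lst8-1, 58.7, 53.8 and 50.2 CPM in yak1, 57.5 to 67.4 CPM over the maktor libraries and 65.1, 64.1 and 64.6 CPM in Col0. Its yak1lst8-1 and yak1 libraries were all below, and its lst8-1 libraries all above, the 3 Col0 libraries. NUG2 fell by 0.53 ± 0.08 in yak1lst8-1 relative to lst8-1 and rose by 0.29 ± 0.08 in lst8-1 relative to Col0 (SE, adjusted p = 0.000117 and 0.0126, edgeR), and the differences of −0.24 ± 0.08 in yak1lst8-1 and −0.25 ± 0.08 in yak1 relative to Col0 were not called (adjusted p = 0.0557 and 0.0568).

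The PES, BOP1 and WDR12 proteins form a complex that processes the precursor of 5.8S and 25S rRNA. WDR12 (AT5G15550) was at 21.2, 19.6 and 18.9 CPM in yak1lst8-1, 32.7, 32.8 and 26.4 CPM in lst8-1, 26.3, 22.5 and 17.7 CPM in yak1, 22.2 to 27.2 CPM over the maktor libraries and 23, 25.7 and 22 CPM in Col0. Its lst8-1 libraries lay above those of yak1lst8-1, yak1 and Col0, but the lowest of them was below the highest maktor library. WDR12 fell by 0.62 ± 0.12, BOP1 by 0.70 ± 0.14 and PES by 0.65 ± 0.14 in yak1lst8-1 relative to lst8-1 (SE, adjusted p of 0.000891 to 0.00221, edgeR). In lst8-1 relative to Col0, WDR12 rose by 0.38 ± 0.12, while BOP1 with 0.38 ± 0.14 and PES with 0.33 ± 0.14 were not called (adjusted p = 0.0251, 0.0504 and 0.0862, edgeR).

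The BRIX-domain paralogs BRX1-1 and BRX1-2 act early in 60S assembly. BRX1-2 (AT1G52930) was at 21.5, 16.7 and 15 CPM in yak1lst8-1, 31.4, 27.5 and 25.8 CPM in lst8-1, 20.4, 19.8 and 14.4 CPM in yak1, 17.4 to 24.3 CPM over the maktor libraries and 27, 19.7 and 23.3 CPM in Col0. BRX1-1 (AT3G15460) was at 8.45, 9.91 and 9.28 CPM in yak1lst8-1, 10.4, 12.4 and 11.2 CPM in lst8-1, 9.87, 9.81 and 7.64 CPM in yak1, 9.82 to 11.1 CPM over the maktor libraries and 11.9, 9.93 and 8.24 CPM in Col0. In both genes the yak1lst8-1 libraries lay below those of lst8-1. BRX1-2 fell by 0.67 ± 0.17 (SE, adjusted p = 0.00585, edgeR), and BRX1-1, with −0.30 ± 0.13, was not called (adjusted p = 0.0885). The ratio of BRX1-2 to BRX1-1 was not shown to differ between the genotypes (exact permutation p = 0.3, smallest possible 0.1). The other 60S factors SWA2 (a NOC1-type protein), AT3G22660 (an EBP2-type protein), RH29 (a DEAD-box helicase) and SMO4 (a NOP53-type protein) fell by 0.45 ± 0.10, 0.59 ± 0.14, 0.54 ± 0.17 and 0.35 ± 0.12 in yak1lst8-1 relative to lst8-1.

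Late factors accompany the 60S precursor out of the nucleus and mature it in the cytoplasm. In yak1lst8-1 relative to lst8-1, 3 of these 4 genes fell, where 16.6 % of all tested genes were called lower. NMD3 (AT2G03820), the export adaptor, was at 87.6, 86.1 and 86.7 CPM in yak1lst8-1, 122.3, 116.5 and 112.3 CPM in lst8-1, 89.9, 87.4 and 91.1 CPM in yak1, 87.2 to 97.6 CPM over the maktor libraries and 96.4, 91.4 and 89.1 CPM in Col0. All lst8-1 libraries stood above all others, and the highest of those was a maktor library. NMD3 fell by 0.43 ± 0.06 in yak1lst8-1 relative to lst8-1 and rose by 0.34 ± 0.06 in lst8-1 relative to Col0 (SE, adjusted p = 4.11e-05 and 0.000410, edgeR). LSG1-2 (AT1G08410), a cytoplasmic GTPase, averaged 16.3 ± 1.99 CPM in yak1lst8-1 and 21.9 ± 2.30 CPM in lst8-1 (SD, n = 3 each) and fell by 0.43 ± 0.12 (SE, adjusted p = 0.0122, edgeR).

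REIL2 and REIL1 are both homologues of the yeast factor Rei1. REIL2 (AT2G24500) was at 31.5, 30.6 and 23.4 CPM in yak1lst8-1, 51.1, 45.8 and 40.6 CPM in lst8-1, 31.8, 28.9 and 24.4 CPM in yak1, 32.5 to 39.5 CPM over the maktor libraries and 40.2, 35.7 and 33.3 CPM in Col0. REIL1 (AT4G31420) was at 39.3, 40.9 and 41.6 CPM in yak1lst8-1, 41.2, 42.3 and 43.6 CPM in lst8-1, 39.3, 41.6 and 37.6 CPM in yak1, 39.0 to 40.3 CPM over the maktor libraries and 38.3, 42.3 and 39.9 CPM in Col0. REIL2 was higher in each lst8-1 library than in any other library, whereas the REIL1 libraries of lst8-1 overlapped with those of yak1lst8-1, yak1 and Col0. REIL2 fell by 0.69 ± 0.12 in yak1lst8-1 relative to lst8-1 and rose by 0.34 ± 0.12 in lst8-1 relative to Col0 (SE, adjusted p = 0.000316 and 0.0417, edgeR). REIL1 was not called in either, with 95 % intervals of −0.20 to 0.07 and −0.06 to 0.21. The log2 ratio of REIL2 to REIL1 per kilobase was −0.51 ± 0.27 in yak1lst8-1 and 0.12 ± 0.21 in lst8-1 without overlap (SD, n = 3 each; exact permutation p = 0.1, 0.25 after adjustment over 10), and −0.14 ± 0.19 in Col0.

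**Figure D4:**
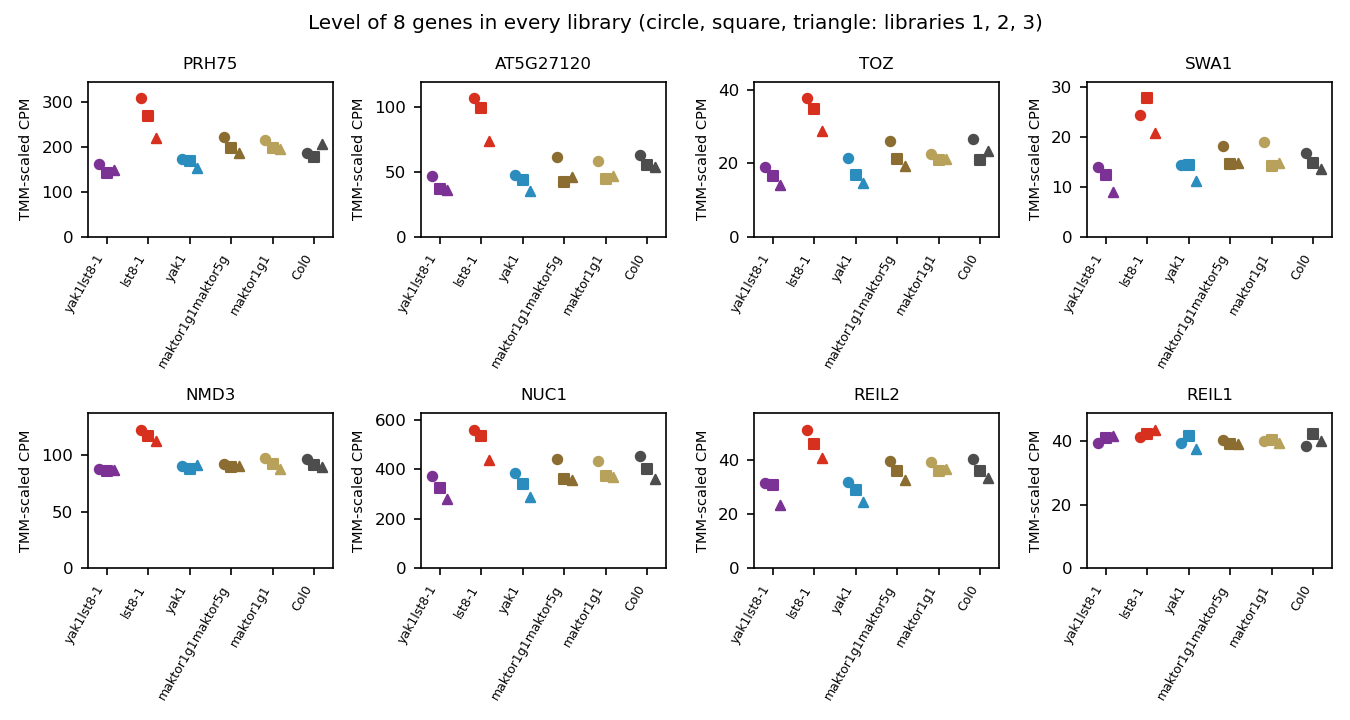
Level of 8 genes in TMM-scaled CPM (vertical axes, each from 0) in every library of the 6 genotypes (horizontal axes), with symbols for the library number. In AT5G27120, TOZ, SWA1, NMD3 and REIL2 the 3 lst8-1 libraries lie above all others, in PRH75 and NUC1 the lowest of them is below another genotype's highest, and REIL1 lies between 37.6 and 43.6 CPM in all 18.

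MTR4, a helicase that feeds RNA to the nuclear exosome, and XRN2, a nuclear exoribonuclease, remove the spacers of the precursor. MTR4 (AT1G59760) was at 36.4, 32.1 and 30.1 CPM in yak1lst8-1, 46, 40.2 and 36.8 CPM in lst8-1, 35.5, 31.1 and 27.1 CPM in yak1, 31.3 to 34.6 CPM over the maktor libraries and 31.3, 33.2 and 31.7 CPM in Col0. XRN2 (AT5G42540) was at 66.2, 55.9 and 53.2 CPM in yak1lst8-1, 73.6, 66.9 and 60.8 CPM in lst8-1, 71.5, 59.4 and 49.6 CPM in yak1, 52.5 to 61.2 CPM over the maktor libraries and 50.8, 57.8 and 58 CPM in Col0. MTR4 fell by 0.32 ± 0.10 in yak1lst8-1 relative to lst8-1 and rose by 0.36 ± 0.10 in lst8-1 relative to Col0 (SE, adjusted p = 0.0175 and 0.0105, edgeR). XRN2, with −0.20 ± 0.11 and 0.27 ± 0.11, was not called in either (adjusted p = 0.189 and 0.0792), and its libraries overlapped between yak1lst8-1 and lst8-1.

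PRH75 (AT5G62190), a nucleolar DEAD-box helicase, was at 162.5, 142.4 and 148.2 CPM in yak1lst8-1, 309.6, 268.8 and 220.8 CPM in lst8-1, 174.5, 169.1 and 153.4 CPM in yak1, 188.2 to 222.6 CPM over the maktor libraries and 186.7, 178.9 and 206.6 CPM in Col0. Its yak1lst8-1 and yak1 libraries were all below those of Col0 and its lst8-1 libraries all above. PRH75 fell by 0.82 ± 0.10 in yak1lst8-1 relative to lst8-1, which had the smallest adjusted p of the 37 genes (SE, adjusted p = 1.58e-05, edgeR), and rose by 0.48 ± 0.10 in lst8-1 relative to Col0 (adjusted p = 0.00210). APUM24 (AT3G16810), a nucleolar Pumilio-type RNA-binding protein, was at 29.6, 27.9 and 24.8 CPM in yak1lst8-1, 42.9, 42.2 and 33.5 CPM in lst8-1, 27.5, 24.5 and 20.3 CPM in yak1, 26.4 to 32.4 CPM over the maktor libraries and 34.6, 32.3 and 23.4 CPM in Col0. It fell by 0.53 ± 0.15 in yak1lst8-1 relative to lst8-1 and rose by 0.40 ± 0.14 in lst8-1 relative to Col0 (adjusted p = 0.01 and 0.0472, edgeR), and the lst8-1 and Col0 libraries overlapped. Its relative APUM23 was not called in either, with −0.36 ± 0.14 and 0.20 ± 0.14 (adjusted p = 0.0597 and 0.329).

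Most of the 37 genes followed a common profile over the 18 libraries. Pearson's r of log2 CPM between a gene and the mean of the other 36 was 0.99 for NUC1 and 0.98 for AT3G05060, and lowest for REIL1 (0.36), NUC2 (0.52), DIM1A (0.56), SWA3 (0.62), BRX1-1 (0.64) and XRN2 (0.65). These values describe points that share genotypes and library numbers, and low counts add noise for NUC2. Outside the gene lists used here, the tested genes nearest to the mean profile over the 18 libraries were AT3G24080 (r = 0.989), PRMT11 (0.976), AT2G37690 (0.974), EDA7 (0.965) and AT1G07830 (0.965).

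Among 45 other listed ribosome biogenesis genes, 15 rose and none fell in lst8-1 relative to Col0 (median 0.32), against 14.1 % of all tested genes higher and 13.4 % lower. In yak1lst8-1 relative to lst8-1, 34 fell and none rose (median −0.57), against 16.6 % of all tested genes lower and 16.4 % higher. The list's AT5G08600 fell by 1.90 ± 0.24 and AT2G40700 by 1.18 ± 0.17 in yak1lst8-1 relative to lst8-1 (SE, adjusted p = 1.17e-05 and 4.41e-05, edgeR). Between yak1lst8-1 and yak1, 0 of the 45 were called, against 1.88 % of all tested genes higher and 1.11 % lower. All 4 genes listed for RNA polymerase I were called in both comparisons: NRPA1 and NRPA2, its largest subunits, rose by 0.56 ± 0.13 and 0.61 ± 0.15 in lst8-1 relative to Col0 and fell by 0.57 ± 0.13 and 0.66 ± 0.15 in yak1lst8-1 relative to lst8-1 (SE, adjusted p of 0.00291 to 0.00589, edgeR).

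Of 8 listed regulators of growth and ribosome synthesis, 3 fell and 1 rose in yak1lst8-1 relative to lst8-1, where 16.6 % of all tested genes were lower and 16.4 % higher. The nucleolar histone deacetylases HD2B and HDA3 fell by 0.62 ± 0.15 and 1.02 ± 0.24, and the transcription factor NAC082 fell by 0.21 ± 0.07 (SE, adjusted p = 0.0041, 0.00431 and 0.0246, edgeR). The S6 kinase gene PK1 rose by 0.24 ± 0.08 in that comparison and by 0.39 ± 0.08 in lst8-1 relative to Col0 (adjusted p = 0.0324 and 0.00171, edgeR), where NAC082 also rose, by 0.27 ± 0.07 (adjusted p = 0.00633).

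Markers of other tissues and cell states were counted in the same comparisons, against the shares of all tested genes called: 14.1 % higher and 13.4 % lower in lst8-1 relative to Col0, and 16.4 % higher and 16.6 % lower in yak1lst8-1 relative to lst8-1. Of 8 markers of dividing cells, 4 fell and none rose in lst8-1 relative to Col0 (CYCB1;4 by 0.82 ± 0.16), and 0 were called in yak1lst8-1 relative to lst8-1. Their summed level was 63.0 to 84.1 CPM in yak1lst8-1, 47.4 to 81.6 CPM in lst8-1, 75.2 to 111.8 CPM in yak1 and 98.9 to 113.1 CPM in Col0. The lst8-1 and yak1lst8-1 sums were all below the Col0 range. Of 9 root markers, 4 rose and none fell in lst8-1 relative to Col0 (SHV2 by 1.14 ± 0.16), and 3 fell and 1 rose in yak1lst8-1 relative to lst8-1. Their summed level was 161.9 to 200.7 CPM in yak1lst8-1, 166.9 to 234.7 CPM in lst8-1, 139.1 to 195.9 CPM in yak1 and 118.7 to 153.0 CPM in Col0.

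Of 6 green-leaf markers, 4 rose in yak1lst8-1 relative to lst8-1 (RBCS2B by 0.93 ± 0.12), where 16.4 % of all tested genes were higher. In lst8-1 relative to Col0, 1 of the 6, RBCS1A, fell by 0.35 ± 0.10, where 13.4 % of all tested genes were lower. Their summed level was 32387.5 to 36831.2 CPM in yak1lst8-1, 23165.9 to 26910.9 CPM in lst8-1, 30951.5 to 42689.6 CPM in yak1 and 28058.3 to 31258.0 CPM in Col0. Of 3 shoot meristem markers, only STM passed the filter, and it fell by 0.72 ± 0.26 in yak1lst8-1 relative to lst8-1 (adjusted p = 0.0389, edgeR). The STM libraries of these genotypes overlapped, with 2.04 CPM in yak1lst8-1 library 1 and 2.03 CPM in lst8-1 library 3. The 3 shoot meristem markers summed to 1.0 to 2.0 CPM in yak1lst8-1, 2.1 to 2.9 CPM in lst8-1, 1.5 to 2.3 CPM in yak1 and 1.8 to 2.1 CPM in Col0. No marker was at 0 in all libraries, but CLV3 and WUS had at most 1 count in any library, below the floor of 3 counts. The shoot meristem sum is therefore nearly that of STM alone. The part of tissue makeup in the differences of the 37 genes was not tested.

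**Figure D5:**
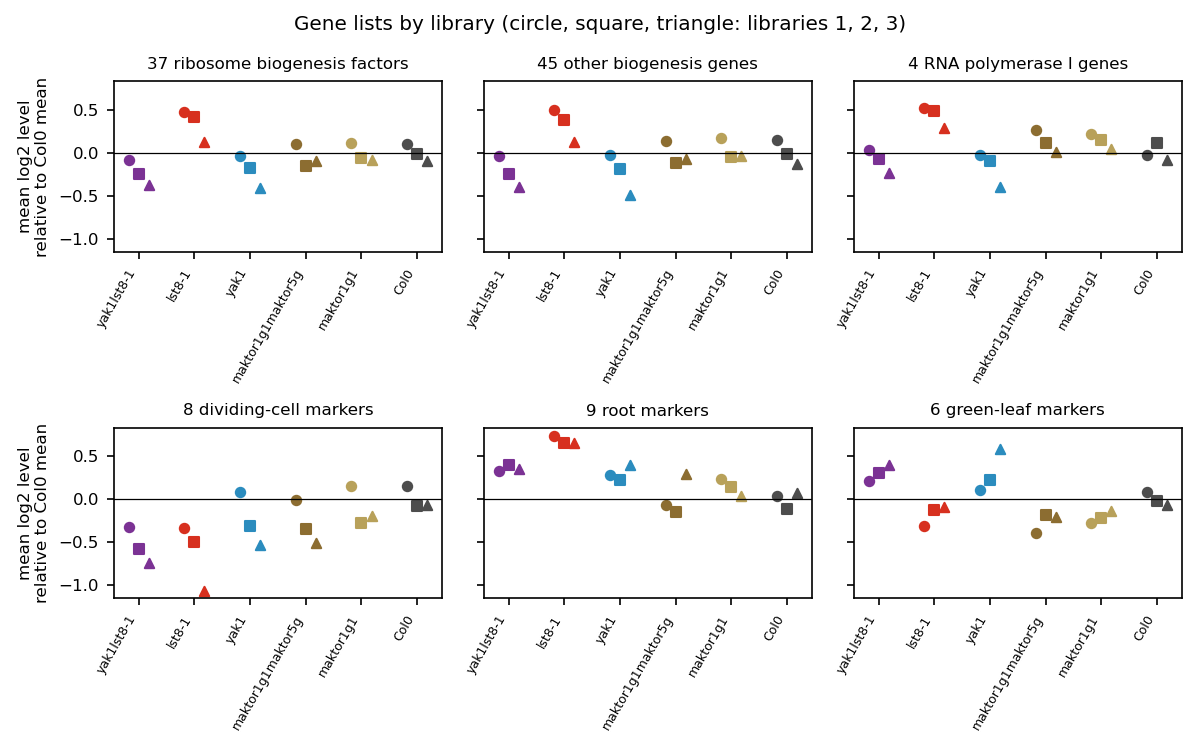
Mean log2 level of 6 gene lists in each library relative to the Col0 mean (vertical axes), by genotype (horizontal axes), with symbols for the library number. The 37 ribosome biogenesis factors, 4 RNA polymerase I genes and 9 root markers are highest in the lst8-1 libraries. For the 45 other biogenesis genes, the lowest lst8-1 library (0.13) is below the highest of maktor1g1 (0.17), Col0 (0.15) and maktor1g1maktor5g (0.14). The 8 dividing-cell markers lie below the Col0 mean in lst8-1 and yak1lst8-1, and the 6 green-leaf markers are highest in yak1 and yak1lst8-1.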

How the data were processed

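The authors deposited raw counts of reads per gene for each library. Reads that mapped equally well to a second place (1.85 to 2.22 %) had been taken out, per the file headers. Per the labels' protocols, polyA libraries were made with a stranded single-end kit. Per the submitters' processing notes TopHat2, Bowtie2 and TAIR10 were used, with versions not given in the sources used here.

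Counts were tested with edgeR 4.0.16 (R 4.3.3) quasi-likelihood F-tests after filterByExpr and TMM scaling, in one fit of 18 libraries with 12 residual degrees of freedom and Benjamini-Hochberg adjustment over 20619 genes, calling an adjusted p below 0.05. SE was |log2 fold change| over the root of F. CPM are TMM-scaled. The code was tested on simulated data. Alternatives used DESeq2 1.42.0, other scalings, no filter on low counts, only the genotypes compared, a replicate block and omitted libraries. The members and lists were chosen with earlier results of these data known. Values in every library are given for the 2 members of each role with the smallest p in yak1lst8-1 against lst8-1, for both members of each paralog pair and for members called in the interaction; from each other list up to 3 genes with the smallest adjusted p in a comparison are named. Of the gene identifiers, 32835 matched RefSeq TAIR10.1. The 95 % intervals of fold changes are from the edgeR fit and cover the spread between libraries, and the floor of 3 counts covers counting error only.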

Additional observations from a re-analysis of the deposited data

Results flagged for a closer look

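For 3 genes the difference between libraries with and without the yak1 label was not the same in the lst8-1 background as in the Col0 background by edgeR's interaction test. The interaction on the log2 scale was −0.61 for PRH75, −0.87 for SWA1 and −0.39 for NMD3. Each was called in the whole set of libraries, and none of the 3 was called under every alternative setting.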

How the results depend on the processing

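No called gene reversed its direction in an alternative, and no gene that was not called became called in the opposite direction. Signs of genes called in neither were not compared. Medians near 0 changed sign when single libraries were left out. They ran from −0.14 to 0.07 in yak1lst8-1 against yak1, −0.04 to 0.04 in maktor1g1 against Col0, −0.1 to 0.02 in maktor1g1maktor5g against Col0 and −0.12 to 0.03 between the maktor lines. With a replicate block, 28 of the 37 genes were called higher in lst8-1 than in Col0, 14 lower in yak1, 17 lower in yak1lst8-1 and 16 in the interaction, against 16, 1, 6 and 3 without it, and 32 against 31 in yak1lst8-1 relative to lst8-1. Over all tested genes, the block gave 7432, 4111, 5771 and 1889 calls in the first 4 of these, against 5673, 2446, 3903 and 714. Same-numbered libraries deviated together with correlations of −0.052 to 0.554, of which 31 of 45 were over 0.1: 15 of 15 for number 1 (median 0.339), 2 of 15 for number 2 and 14 of 15 for number 3, while differently numbered libraries had a median of −0.098. Over the 37 genes, every library numbered 1 lay above its genotype mean, on average by 0.1 to 0.17 on the log2 scale. Every library numbered 3 lay below it, with −0.22 to −0.05. Not every pair exceeded 0.1 and no label ties the numbers to a shared batch, so the fit without the block was kept. The labels do not settle which fit is right, so the smaller counts without the block are not shown to be the better ones. Over all genes, the yak1 comparison called 2446 genes, 4111 with the block and 929 when only the genotypes compared were fitted, where 0 of the 37 were called in yak1 and 0 in the interaction. The interaction had 1 call with library totals and 5 with DESeq2, where 693 and 957 of all tested genes were called in either direction. With only libraries numbered 2 and 3, a choice made after seeing the data, 6 genes were called in yak1, and 2179 over all genes. Leaving out 1 library gave 6 to 25 calls in lst8-1 against Col0, 0 to 4 in yak1, 0 to 10 in yak1lst8-1 against Col0, 22 to 32 in yak1lst8-1 against lst8-1 and 0 to 6 in the interaction. Calls over all tested genes changed too. In lst8-1 against Col0 they were 4489 without lst8-1 replicate 1 and 5000 without lst8-1 replicate 3. Calls were kept in all alternatives for 6 of 16 genes in lst8-1 and 21 of 31 in yak1lst8-1 relative to lst8-1, and for 0 of 1, 0 of 6 and 0 of 3 in the others. The cause of these shifts was not tested.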
